A study of Mus musculus with 9 samples.

Results

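Glutamate receptors and the scaffold and adhesion proteins around them in the postsynaptic membrane were followed across 9 mouse hippocampi. The set held 41 genes, chosen by gene symbol from the 24411 genes listed in each file: 16 ionotropic receptor subunits, 6 metabotropic receptors, 14 scaffolds and 5 adhesion molecules. All 41 were among the 14867 genes whose mean over the 9 mice reached log2 of 10 and which were tested. The values were regularized logarithms (rlog) of normalized RNA-seq counts, so 1 unit is a 2-fold difference.

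All mice were wild-type C57BL/6J animals, 10 weeks old, whose CA1 region had been injected on both sides with an adeno-associated virus of serotype 9 (AAV9) carrying Egfp with CTG repeats in its 3′-UTR. Transcribed CTG repeats give CUG repeats in RNA, the kind of RNA that accumulates in myotonic dystrophy type 1. The CUG10 vehicle group (n = 3) received 10 repeats with vehicle and served as control, the CUG300 vehicle group (n = 3) received 300 repeats with vehicle, and the CUG300 CWG-cPIP group (n = 3) received 300 repeats with CWG-cPIP, a cyclic pyrrole-imidazole polyamide designed to bind CAG and CTG repeat DNA. Compound or vehicle was given in the same injection as the virus, and hippocampus was taken 10 days later. The model expresses a repeat from a viral Egfp transcript in the injected area rather than from a disease gene, and no uninjected mouse and no CUG10 mouse given CWG-cPIP was among the samples analysed here. The 3 comparisons share groups with each other, so each is given with its own values. Each sample was 1 mouse by the study's description, and the p-values measure the spread between these mice. Sequencing depth is unknown, since the deposited values hold no counts, and the median over all genes tested ran from 8.43 to 8.54 in the 9 mice.

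At excitatory synapses glutamate opens AMPA receptors, which carry most of the fast current, and NMDA receptors, which admit calcium when the membrane is already depolarized. Kainate and metabotropic receptors tune release and excitability. Under the membrane, proteins of the PSD-95 family bind receptors and neuroligins and connect through SAPAP proteins to Shank and Homer, which tie the receptors to actin and to calcium stores. In the hippocampus this assembly is the substrate of synaptic plasticity and memory.

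Control hippocampus set the baseline. Per kb of exon (GENCODE M21, GRCm38), the highest level of the 41 in CUG10 vehicle mice was that of Gria1, at 10.82 on the log2 scale. Dlgap3 at 9.90, Grik5 at 9.45, Grin1 at 9.43 and Gria2 at 9.33 followed, and Grm8 was lowest at 3.62. The order below Gria1 held for the summed exon length only: by the longest transcript Grin1 came next at 10.61, above Dlg4, Dlgap1 and Dlgap3, and Grik5 stood at 9.80. Within the AMPA class the order was Gria1, Gria2, Gria3 at 8.10 and Gria4 at 7.0. Within the NMDA class the obligatory subunit gene Grin1 stood far above the other 5, which lay between 4.05 for Grin2a and 6.43 for Grin2c. Grin2b at 4.45 and Grin2d at 4.39 were neighbours whose order turned with the exon length used. The order of Dlg3 at 9.16 and Dlg4 at 8.95, of Dlgap3 and Dlgap1, and of Nlgn3 and Nlgn1 turned in the same way. Among scaffolds Shank2 at 5.85 was the lowest.

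**Figure D1:**
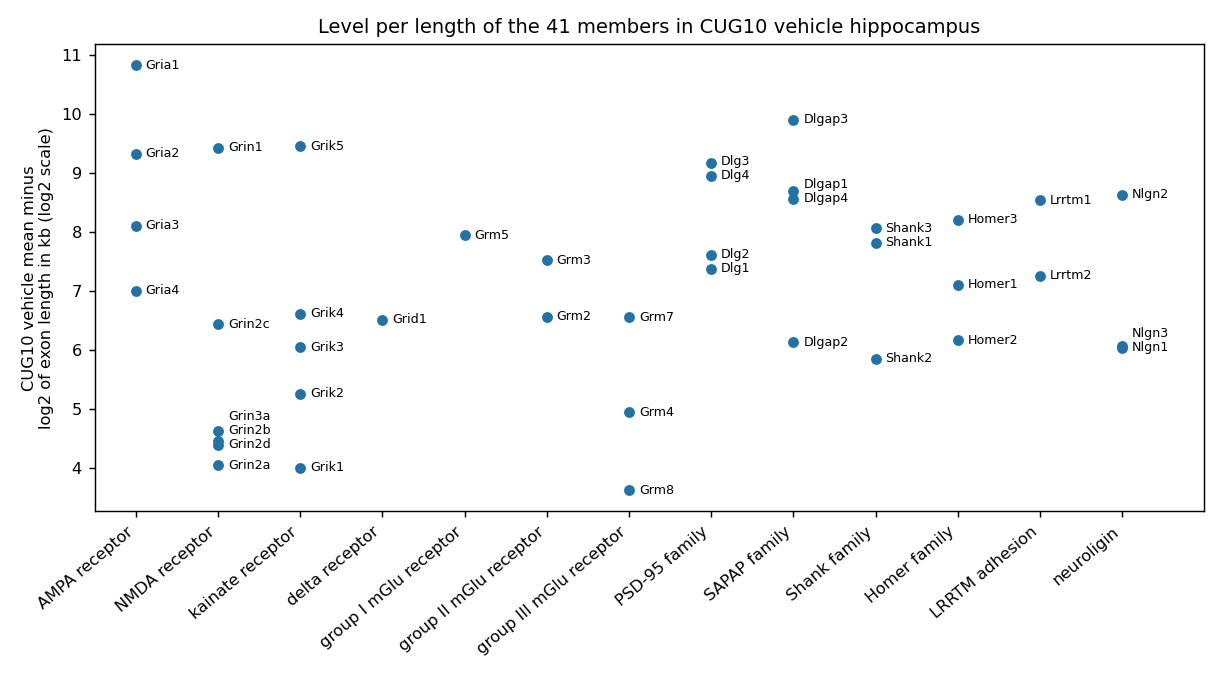
Level per length of the 41 members in CUG10 vehicle hippocampus: the mean rlog value of 3 mice minus log2 of the summed exon length in kb (vertical axis, log2 scale), by class (horizontal axis), with 1 point a gene. Gria1 sat highest at 10.82 and Grm8 lowest at 3.62.

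CUG300 vehicle mice were first compared with CUG10 vehicle mice, which asks what the long repeat changed. The group mean was lower in CUG300 vehicle mice for 40 of the 41 genes, against 51.6% of all genes tested, the exception being Nlgn2 at 0.01. Of the 41, 4 fell past an adjusted p of 0.05 (limma, Benjamini-Hochberg over 14867 genes): the SAPAP scaffold Dlgap3, the NMDA subunit Grin1 and the AMPA subunits Gria4 and Gria3. None rose. Called genes made up 9.76% of the members, against 3.34% of all genes called lower and 7.37% called higher. In 16 members every CUG300 vehicle mouse lay below every CUG10 vehicle mouse, a pattern found in 16.7% of all genes, and 18 members were lower at an unadjusted p under 0.05, against 14.2% of all genes. The median log2 difference was -0.33 over the members and -0.01 over all genes tested. The count of 4 changed with the mice left in: without CUG10 vehicle replicate 1, 2 or 3, or without CUG300 vehicle replicate 3, none of the 41 was called and 0 of all 14867 genes were called lower by limma, without CUG300 CWG-cPIP replicate 1 only Dlgap3 was (49 of all genes), and without CUG300 vehicle replicate 2 the count was 13, beside 1166 of all genes in place of 496. Without CUG300 CWG-cPIP replicate 3 it was 7 (777 of all genes), and under quantile normalization it was 2 (642).

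**Figure D2:**
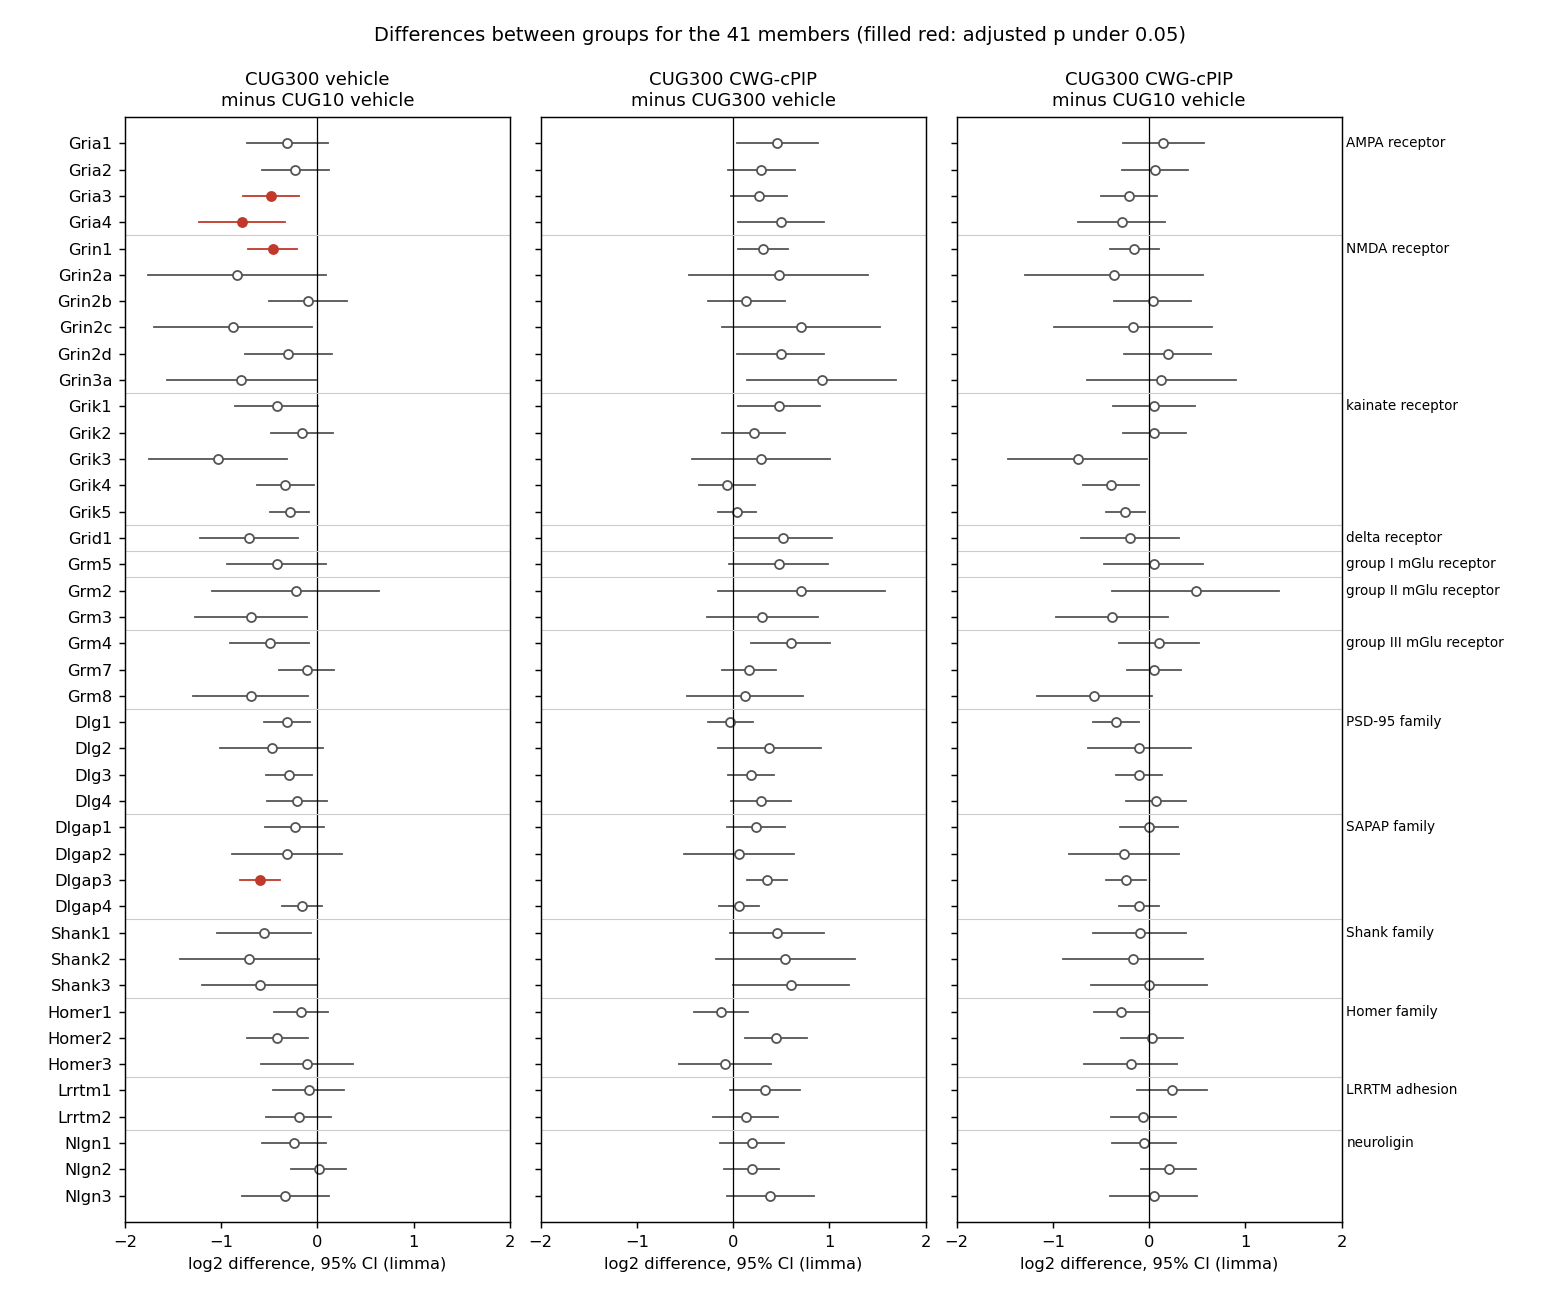
Log2 differences of the 41 members (horizontal axes, with 95% confidence intervals from limma) in the 3 comparisons, ordered by class; filled red points have an adjusted p under 0.05. In CUG300 vehicle minus CUG10 vehicle 40 of 41 points lie below 0 and 4 are red, and in CUG300 CWG-cPIP minus CUG300 vehicle 37 of 41 lie above 0 and none is red.

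AMPA receptors are tetramers of Gria1 to Gria4 products. Gria1 and Gria2 make up the main hippocampal form, and Gria2 keeps the channel impermeable to calcium. Gria4 measured 9.69, 9.56 and 9.72 in the CUG10 vehicle mice, 8.80, 9.15 and 8.68 in the CUG300 vehicle mice and 9.43, 9.74 and 8.94 in the CUG300 CWG-cPIP mice. The first 2 groups did not overlap, while the CWG-cPIP mice spanned both. Gria4 fell by 0.78 on the log2 scale (SE 0.20, adjusted p = 0.0402, limma).

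Gria3 read 11.40, 11.36 and 11.46 in CUG10 vehicle, 10.78, 11.22 and 10.78 in CUG300 vehicle and 11.26, 11.28 and 11.05 in CUG300 CWG-cPIP mice. Again the vehicle groups did not overlap, with CUG300 vehicle replicate 2 nearest to the controls. Gria3 fell by 0.48 (SE 0.13, adjusted p = 0.0474, limma). The difference of CUG300 CWG-cPIP from CUG300 vehicle mice was 0.50 for Gria4 (SE 0.20) and 0.27 for Gria3 (SE 0.13), each with an adjusted p of 0.483 (limma).

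Gria1 measured 13.35, 13.40 and 13.51 in CUG10 vehicle, 12.92, 13.58 and 12.83 in CUG300 vehicle and 13.62, 13.67 and 13.42 in CUG300 CWG-cPIP mice. Gria2 measured 13.31, 13.21 and 13.35, then 13.12, 13.35 and 12.71, then 13.41, 13.39 and 13.25 in the same order. For both genes CUG300 vehicle replicate 2 was above the highest control value while replicates 1 and 3 were below them, so the groups overlapped. The CUG300 vehicle minus CUG10 vehicle difference was -0.31 for Gria1 (SE 0.18, 95% interval -0.73 to 0.11, adjusted p = 0.283, limma) and -0.23 for Gria2 (SE 0.15, adjusted p = 0.341). Without CUG300 vehicle replicate 2 Gria1 was called, at -0.55 (adjusted p = 0.0308), and Gria2 was -0.37, while without replicate 3 they were -0.17 and -0.052.

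NMDA receptors combine the obligatory Grin1 product with Grin2 or Grin3 subunits that set their kinetics. Grin1 measured 12.66, 12.73 and 12.73 in CUG10 vehicle, 12.03, 12.45 and 12.24 in CUG300 vehicle and 12.57, 12.61 and 12.47 in CUG300 CWG-cPIP mice. The 3 groups did not overlap at all, with the CWG-cPIP mice between the other two. Grin1 fell by 0.46 in CUG300 vehicle mice (SE 0.11, adjusted p = 0.0378, limma). The CWG-cPIP mice were higher than CUG300 vehicle mice by 0.31 (SE 0.11, adjusted p = 0.483). The antisense gene Grin1os overlaps an exon of Grin1 on the other strand, and its means differed by -0.49 and 0.30 in the same comparisons. The kit keeps the strand, but the strand setting of the counting was not given in the sources used here, so reads of the pair may not be told apart.

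Grin2a, the subunit that becomes common in the mature forebrain, measured 7.69, 8.18 and 8.76 in CUG10 vehicle mice. It measured 6.70, 8.15 and 7.28 in CUG300 vehicle mice and 8.08, 8.21 and 7.25 in CUG300 CWG-cPIP mice. The controls already spread over more than 1 log2 unit, and the difference of -0.83 (SE 0.41, 95% interval -1.76 to 0.09) did not pass the test (limma adjusted p = 0.203). Grin2b, which predominates early in life, measured 9.01, 9.03 and 9.21, then 9.35, 8.97 and 8.64, then 9.15, 8.91 and 9.30. Its groups overlapped throughout and its difference was -0.10 (SE 0.18, adjusted p = 0.742), a value that became 0.23 once the trend over transcript length described below was removed. For Grin2c, Grin2d and Grin3a the CUG300 vehicle minus CUG10 vehicle differences were -0.87, -0.30 and -0.79, none past the test.

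**Figure D3:**
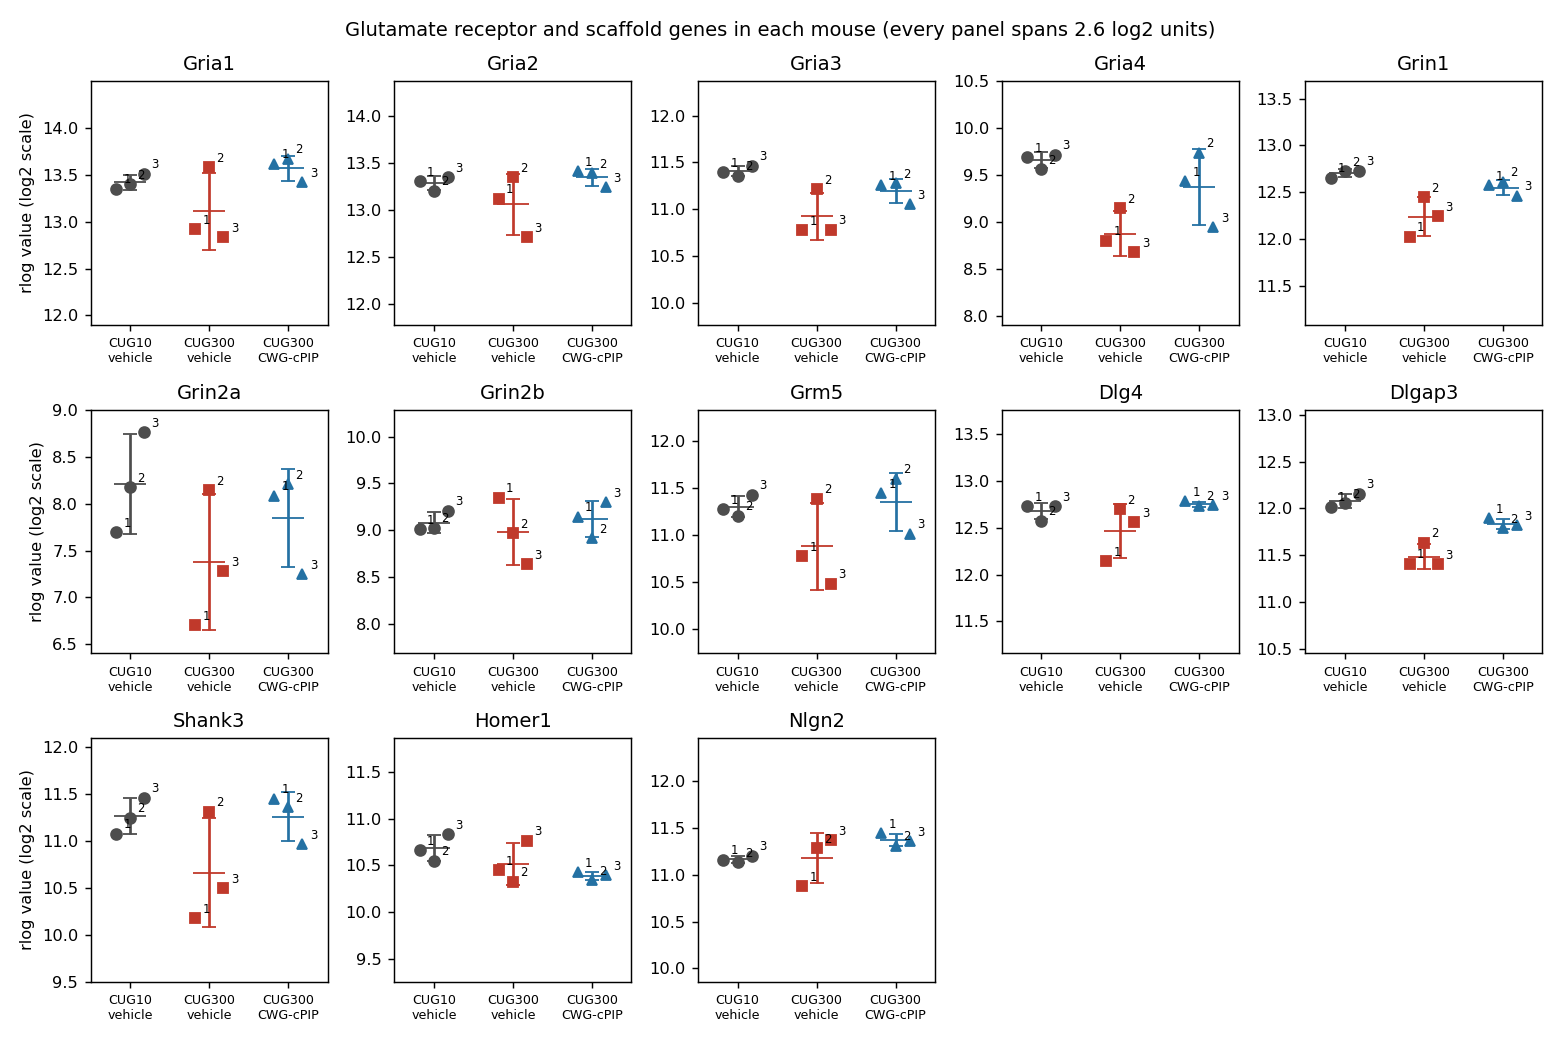
rlog values (vertical axes, log2 scale, 2.6 units a panel) of 13 receptor, scaffold and adhesion genes in every mouse; points are mice with their replicate number, horizontal bars the group means and error bars 1 SD (n = 3). In Gria1, Gria2, Gria3, Gria4, Grin1, Grin2a, Grm5, Dlg4, Dlgap3 and Shank3 CUG300 vehicle replicate 2 lies above replicates 1 and 3. Of these, Dlgap3, Grin1, Gria3 and Gria4 show no overlap between the vehicle groups.

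Kainate receptors had no member past the test, although Grik3 had the largest difference of the 41. It was -1.03 (SE 0.32, 95% interval -1.75 to -0.32, adjusted p = 0.0665, limma). Grik3 measured 9.17, 8.97 and 9.50 in CUG10 vehicle, 7.75, 8.57 and 8.21 in CUG300 vehicle and 8.50, 9.08 and 7.82 in CUG300 CWG-cPIP mice. The vehicle groups did not overlap. Grik5, an abundant high-affinity subunit, differed by -0.29 (adjusted p = 0.0682), and Grik1, Grik4 and Grik2 by -0.42, -0.33 and -0.16. The delta receptor gene Grid1, whose product binds cerebellins, differed by -0.71 (adjusted p = 0.0724).

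Metabotropic receptors likewise had lower means in CUG300 vehicle mice in 6 of 6 genes, with none past the test. Grm5, the group I receptor that couples to Homer, measured 11.27, 11.21 and 11.43 in CUG10 vehicle, 10.77, 11.38 and 10.48 in CUG300 vehicle and 11.45, 11.60 and 11.01 in CUG300 CWG-cPIP mice. CUG300 vehicle replicate 2 lay among the controls, and the difference was -0.42 (SE 0.23, adjusted p = 0.239, limma). It was -0.68 and called without that mouse (adjusted p = 0.0414, limma) and -0.22 without replicate 3. Of group II, Grm3, which astrocytes also express, differed by -0.69 and Grm2 by -0.22. Of group III, whose receptors act mainly at the presynaptic terminal, Grm8, Grm4 and Grm7 differed by -0.69, -0.50 and -0.11.

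Scaffold genes numbered 14, and all 14 means were lower in CUG300 vehicle mice, 1 of them past the test. Dlgap3, which encodes SAPAP3, the link between PSD-95 and Shank, had the smallest adjusted p of the 41. It measured 12.02, 12.06 and 12.16 in CUG10 vehicle, 11.41, 11.64 and 11.41 in CUG300 vehicle and 11.90, 11.79 and 11.82 in CUG300 CWG-cPIP mice. The 3 groups were fully separate, with the CWG-cPIP mice in the middle. Dlgap3 fell by 0.59 in CUG300 vehicle mice (SE 0.09, 95% interval -0.80 to -0.38, adjusted p = 0.0207, limma), to 0.663 of the control level. Dlgap1, Dlgap2 and Dlgap4 differed by -0.24, -0.31 and -0.16.

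Dlg4, which encodes PSD-95, measured 12.73, 12.57 and 12.73 in CUG10 vehicle, 12.14, 12.70 and 12.56 in CUG300 vehicle and 12.78, 12.73 and 12.74 in CUG300 CWG-cPIP mice. The vehicle groups overlapped, and the difference was -0.21 (SE 0.14, adjusted p = 0.321, limma), which became -0.051 without CUG300 vehicle replicate 1 and -0.33 without replicate 2. Dlg1, Dlg2 and Dlg3 differed by -0.31, -0.47 and -0.29.

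Shank3, a master scaffold at the base of the density, measured 11.08, 11.25 and 11.46 in CUG10 vehicle, 10.18, 11.31 and 10.50 in CUG300 vehicle and 11.45, 11.36 and 10.97 in CUG300 CWG-cPIP mice. Replicate 2 of the CUG300 vehicle group was again among the controls, and the other two mice of its group were below them. The difference was -0.60 (SE 0.27, adjusted p = 0.163, limma), beside -0.55 for Shank1 and -0.71 for Shank2. Without CUG300 vehicle replicate 2 Shank3 was called, at -0.92 (adjusted p = 0.0307, limma), and without replicate 1 it was -0.36.

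Homer1 measured 10.66, 10.55 and 10.83 in CUG10 vehicle, 10.45, 10.33 and 10.76 in CUG300 vehicle and 10.43, 10.34 and 10.39 in CUG300 CWG-cPIP mice. The gene value sums long forms that crosslink receptors and a short form induced by activity. The vehicle groups overlapped with a difference of -0.17 (SE 0.12, adjusted p = 0.386, limma), while Homer2 and Homer3 differed by -0.41 and -0.11.

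Adhesion molecules had a median difference of -0.19 between the vehicle groups. Of the 5 genes 0 were called by limma, against 3.34% of all genes called lower and 7.37% called higher. At an unadjusted p under 0.05 were 0 of 5, against 14.2% of all genes lower at that p. Counts over 5 genes cannot be told from these shares. Nlgn2, the neuroligin of inhibitory synapses, measured 11.16, 11.13 and 11.20 in CUG10 vehicle, 10.88, 11.28 and 11.37 in CUG300 vehicle and 11.44, 11.31 and 11.36 in CUG300 CWG-cPIP mice. Its mean differed by 0.01 (SE 0.13, 95% interval -0.27 to 0.30, adjusted p = 0.962), and the sign turned under median centering, to -0.06. Nlgn1, of excitatory synapses, and Nlgn3 differed by -0.25 and -0.33, and the leucine-rich-repeat proteins Lrrtm1 and Lrrtm2, which bind neurexins, by -0.09 and -0.19. Whether the classes differed from each other was not tested.

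CWG-cPIP was then compared with vehicle in CUG300 mice, which asks what the compound changed. Means were higher with CWG-cPIP for 37 of the 41 genes, against 49.4% of all genes, the exceptions being Homer1 at -0.13, Homer3 at -0.08, Grik4 at -0.06 and Dlg1 at -0.03. None of the 41 was called, and 0% of all genes were (limma), with 10 members higher at an unadjusted p under 0.05 (5.23% of all genes) and 0 lower. The smallest adjusted p among the members was 0.483. The median log2 difference was 0.30 over the members and -0.0032 over all genes tested.

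In 5 members every CWG-cPIP mouse lay above every CUG300 vehicle mouse, a pattern found in 4.97% of all genes: Grin1, Dlgap3, Dlg4, Grm4 and Homer2. The last 2, of which Grm4 encodes a presynaptic receptor, differed by 0.60 (SE 0.18) and 0.44 (SE 0.14). Grin3a, whose product lowers calcium entry, had the largest difference at 0.92 (SE 0.34, 95% interval 0.14 to 1.69). Differences ran from 0.27 to 0.50 in the AMPA class, 0.14 to 0.92 in the NMDA class, -0.06 to 0.47 in the kainate class and 0.45 to 0.60 in the Shank family. Grm5 differed by 0.47 (SE 0.23), Shank3 by 0.60 (SE 0.27), Dlg4 by 0.29 (SE 0.14) and Nlgn2 by 0.19 (SE 0.13). With 1 mouse left out these ran from 0.27 to 0.73, 0.36 to 0.92, 0.12 to 0.40 and 0.043 to 0.29, the lowest without CUG300 vehicle replicate 3 for Grm5 and without replicate 1 for the other three, and the highest without replicate 2 except for Nlgn2, where it was without replicate 3.

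Compared with CUG10 vehicle mice, CUG300 CWG-cPIP mice had higher means in 16 of the 41 genes, against 50.1% of all genes. None of the 41 was called and 0% of all genes were (limma), with 6 members lower at an unadjusted p under 0.05 (5.31% of all genes) and 0 higher. The groups were separate and lower in 8 members (12.4% of all genes) and separate and higher in 2, Dlg4 and Nlgn2 (13.4%). The median was -0.10 over the members and 0.00047 over all genes. The lowest differences were those of Grik3 at -0.74, Grm8 at -0.57 and Grik4 at -0.40. Dlg1, which encodes SAP97, had the smallest adjusted p, 0.232, at -0.34 (SE 0.10), and Dlgap3 stood at -0.24 (SE 0.09). A test of all 3 groups at once called 0% of all genes and none of the members (limma F test), with 11 members at an unadjusted p under 0.05 against 23.5% of all genes. Its smallest adjusted p was 0.0547, for Dlgap3.

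The members were also summarized within each mouse. The median of the 41 differences from the CUG10 vehicle mean was -0.53, -0.11 and -0.48 in the 3 CUG300 vehicle mice and 0.04, 0.08 and -0.24 in the 3 CUG300 CWG-cPIP mice. In the controls it was -0.04, -0.05 and 0.07, and over all genes tested it lay between -0.01 and 0.02 in every mouse. Below the control mean were 40, 27 and 38 members in the CUG300 vehicle mice and 19, 15 and 34 in the CWG-cPIP mice. CUG300 vehicle replicate 2 thus stood nearer to the controls than CUG300 CWG-cPIP replicate 3 did. Without CUG300 vehicle replicate 2 the median difference between the vehicle groups was -0.51.

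**Figure D4:**
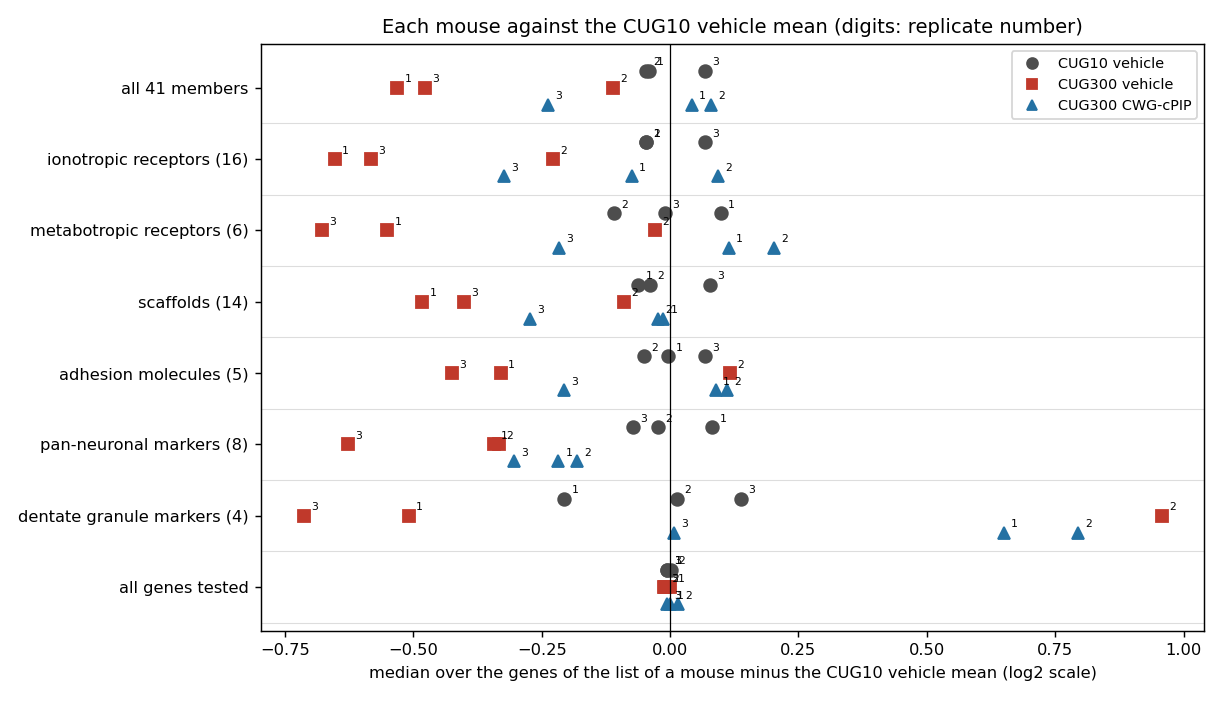
Median deviation of each mouse from the CUG10 vehicle mean (horizontal axis, log2 scale) for the members, their classes, 2 marker lists and all genes tested; points are mice, marked by group and replicate number, and numbers in brackets count genes. CUG300 vehicle replicates 1 and 3 lie lowest for the members at -0.53 and -0.48, and replicate 2 lies highest for the dentate granule markers at 0.96.

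Lists of cell type markers were summarized in the same mice, and not all of them followed the members from mouse to mouse. The 8 pan-neuronal genes deviated by -0.34, -0.33 and -0.63 in CUG300 vehicle and by -0.22, -0.18 and -0.30 in CUG300 CWG-cPIP mice. Of them 8 of 8 had lower means in CUG300 vehicle than in CUG10 vehicle mice and 3 were called (Syt1, Eno2 and Nefl), and their mean level ran from 13.02 to 13.14 in CUG10 vehicle, 12.55 to 12.80 in CUG300 vehicle and 12.78 to 12.94 in CUG300 CWG-cPIP mice. The 4 dentate granule genes, none called, deviated by -0.51, 0.96 and -0.71 in CUG300 vehicle and 0.65, 0.79 and 0.01 in CUG300 CWG-cPIP mice, with mean levels of 8.84 to 9.16, 8.33 to 9.89 and 9.19 to 9.81 in the 3 groups. CUG300 vehicle replicate 2 was the highest mouse on this list.

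Of the 4 infiltrating monocyte genes 4 were called higher in CUG300 vehicle mice, with mean levels of 5.76 to 6.20 in CUG10 vehicle, 9.64 to 10.24 in CUG300 vehicle and 6.79 to 10.08 in CUG300 CWG-cPIP mice. The mouse at 10.08 was CUG300 CWG-cPIP replicate 3, the lowest of its group for the members. CUG300 vehicle replicates 1 and 2, at -0.53 and -0.11 for the members, read 10.16 and 10.51 for Ly6c2 and 7.71 and 8.11 for Ccr2. The same 2 mice read 10.75 and 9.99 for Plac8 and 10.04 and 9.95 for Ms4a4c. Thalamic and cortical genes, which mark tissue beside the hippocampus, had median differences of 0.69 (0 of 7 called) and -0.71 (2 of 5 called) between the vehicle groups. Their mean levels ran from 7.45 to 8.06, 7.73 to 8.89 and 8.91 to 9.11 for the thalamic list and from 8.62 to 9.01, 8.14 to 8.25 and 8.25 to 8.61 for the cortical list in CUG10 vehicle, CUG300 vehicle and CUG300 CWG-cPIP mice. Median differences between the vehicle groups on the remaining lists were -0.51 for GABAergic interneurons (0 of 6 called), 0.45 for astrocytes and 0.40 for microglia (2 of 6 called higher in each), 1.21 for T cells (3 of 5 called higher), 0.97 for choroid plexus (0 of 6 called), -0.60 for oligodendrocytes (0 of 5), -0.75 for their precursors (0 of 4), 0.13 for endothelium (0 of 4), 0.02 for CA1 pyramidal cells (of 4 genes 1 called lower and 1 higher) and -0.15 for CA3 pyramidal cells (0 of 4). The CA1 median joins opposite changes, with Fibcd1 called lower at -0.80 and Dcn called higher at 1.69. Between CWG-cPIP and CUG300 vehicle mice the choroid plexus list had a median of -2.15, with 6 of 6 means lower and none called by limma. Its mean level ran from 6.60 to 9.33 in CUG10 vehicle, 8.41 to 9.79 in CUG300 vehicle and 6.81 to 6.84 in CUG300 CWG-cPIP mice. The part of these cells in the members' values was not tested, and in bulk tissue fewer cells of a type cannot be told apart from less RNA per cell.

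Genes with long transcripts moved with the members. The longest annotated transcript had a median of 5673 bases over the 41 members and 3431 over the 14301 genes matched, and 28 members fell among the 3575 genes with transcripts of 4860 bases or more. The median deviation of all those genes was -0.32, 0.02 and -0.12 in the CUG300 vehicle mice and 0.02, 0.10 and -0.14 in the CUG300 CWG-cPIP mice. Within both CUG300 groups that is the same order of mice as for the members. GC content of those transcripts was similar, with a median of 49.3% in members and 49.8% in all genes.

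The fit was therefore repeated, as a choice made after seeing the data, with each mouse's trend over length removed. The same 4 genes were called lower, with Grik3 at -0.85 (adjusted p = 0.0362, limma) and Grid1 at -0.60 (adjusted p = 0.0365) besides. Over all 14301 genes with a transcript length, lower calls went from 470 to 875 and higher calls from 1056 to 1459 in the same fit. The differences of the 4 became -0.55 for Dlgap3, -0.42 for Grin1, -0.68 for Gria4 and -0.39 for Gria3. Members with a lower mean in CUG300 vehicle mice were then 38 of 41 and their median was -0.22, and the per-mouse medians became -0.25, -0.09 and -0.42 in CUG300 vehicle and 0.02, -0.03 and -0.15 in CUG300 CWG-cPIP mice. For CWG-cPIP against vehicle the median became 0.22, with none of the 41 and 0 of all 14301 genes called by limma. At an unadjusted p under 0.05 (limma) were 11 members, against 10 before removal. Between the vehicle groups such members numbered 16, against 18 before removal. The share of all genes at that p after removal is not given here.

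**Figure D5:**
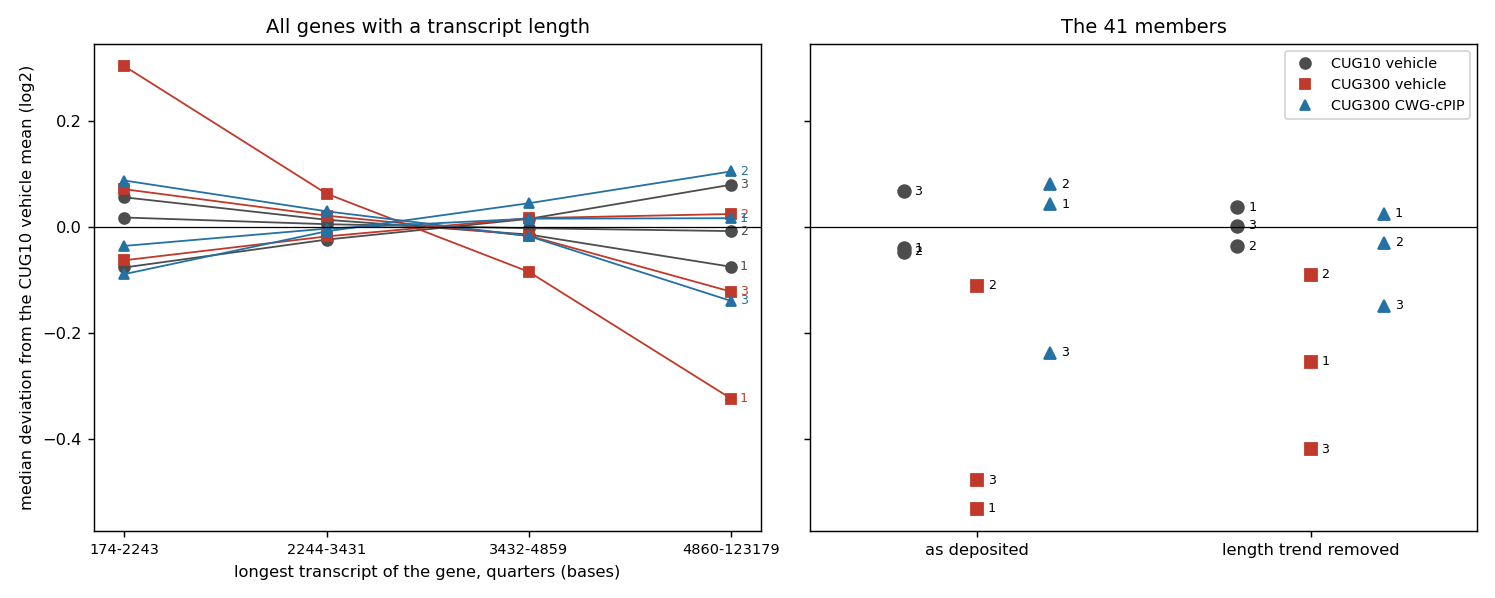
Left, median deviation from the CUG10 vehicle mean (vertical axis, log2 scale) of all genes with a transcript length, in 4 bins of length in bases (horizontal axis), with 1 line a mouse; right, the same median over the 41 members as deposited and after removal of each mouse's length trend. CUG300 vehicle replicate 1 has the steepest line, ending at -0.32, and the members of CUG300 vehicle replicates 1 and 3 stay below 0 at -0.25 and -0.42 after removal.

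Subunit make-up was compared as differences of log2 values within a mouse, in 12 exact two-sided permutation tests whose smallest possible p with 3 against 3 mice is 0.1. Gria4 minus Gria2 was -3.63 ± 0.01 (SD, n = 3) in CUG10 vehicle, -4.18 ± 0.15 in CUG300 vehicle and -3.98 ± 0.32 in CUG300 CWG-cPIP mice. CUG300 vehicle and CUG10 vehicle mice did not overlap, with a difference of -0.56 (exact permutation p = 0.1, adjusted p = 0.4). CUG300 CWG-cPIP and CUG10 vehicle mice did not overlap either, with a difference of -0.35 (exact permutation p = 0.1, adjusted p = 0.4). Gria1 minus Gria2 was 0.13 ± 0.08, 0.05 ± 0.23 and 0.22 ± 0.05 in the 3 groups, which overlapped. Grin2a minus Grin2b was -0.87 ± 0.44, -1.61 ± 0.94 and -1.27 ± 0.70, also overlapping, and without CUG300 vehicle replicate 1 the difference between the vehicle groups was -0.22 in place of -0.74, and CWG-cPIP minus CUG300 vehicle turned from 0.33 to -0.18. Nlgn2 minus Nlgn1, a balance of inhibitory and excitatory neuroligin, was 1.38 ± 0.08, 1.64 ± 0.36 and 1.64 ± 0.14, and CWG-cPIP mice did not overlap with CUG10 vehicle mice (exact permutation p = 0.1, adjusted p = 0.4).

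Genes that work beside the members were counted in 6 sets of related genes. In CUG300 vehicle against CUG10 vehicle mice 3.34% of all genes tested were called lower, and counts in sets this small cannot be told from that share. Of 11 trafficking and PDZ adaptor genes 1 was called lower, Begain, whose product binds PSD-95 family proteins. It measured 10.67, 10.76 and 10.83 in CUG10 vehicle, 10.27, 10.28 and 10.42 in CUG300 vehicle and 10.62, 10.53 and 10.59 in CUG300 CWG-cPIP mice. The 3 groups were separate, and Begain fell by 0.43 (SE 0.08, adjusted p = 0.0243, limma).

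Of 6 presynaptic partners of the adhesion molecules 1 was called lower, the neurexin gene Nrxn2. It read 11.79, 11.73 and 11.78 in CUG10 vehicle, 11.28, 11.44 and 11.27 in CUG300 vehicle and 11.59, 11.79 and 11.41 in CUG300 CWG-cPIP mice. The vehicle groups did not overlap, and Nrxn2 fell by 0.44 (SE 0.11, adjusted p = 0.0387, limma).

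No gene was called among 14 auxiliary receptor subunits, 9 postsynaptic signaling genes, 3 inhibitory scaffold genes and the 5 tested family members outside the 41. Their first-written genes differed by -0.17 for Cacng2, which encodes the TARP stargazin, by -0.42 for the kinase gene Camk2a, by -0.09 for Gphn, the gephyrin gene, and by 0.26 for Grin3b. In CWG-cPIP against vehicle and against CUG10 vehicle mice none of these related genes was called. CUG300 vehicle means were below CUG10 vehicle means in 12 of 14 auxiliary subunits (median -0.29) and 8 of 9 signaling genes (median -0.36). The same held for 10 of 11 adaptors (-0.33) and 6 of 6 presynaptic partners (-0.38). It also held for 3 of 3 inhibitory scaffold genes (-0.47) and 4 of 5 family members outside the 41 (-0.23). Lower means were thus not particular to the 41 members.

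Because CWG-cPIP was designed for CAG and CTG repeats, the annotated GENCODE M21 transcripts of the members were searched for these units on the transcript strand. Uninterrupted runs of at least 4 units were found in 6 of the 41 members, 14.6%, against 7.71% of 14301 genes searched. Runs of at least 5 units were found in 4.88% of members and 3.33% of genes. Members have longer transcripts, as given above, and the part of length in these shares was not tested. They are shown with 3 bases on either side and the run in capitals.
Grin2d, chr7:45869851-45869874, minus strand, exon 1, 5′ UTR: ctaCTGCTGCTGCTGCTGCTGCTGCTGcta
Grik5, chr7:25068496-25068510, minus strand, exon 2, coding sequence: gagCTGCTGCTGCTGCTGata
Grm2, chr9:106654250-106654261, minus strand, exon 2, coding sequence: gcaCTGCTGCTGCTGcgg
Grm4, chr17:27513073-27513084, minus strand, exon 1, 5′ UTR: cggCAGCAGCAGCAGcac
Dlg2, chr7:92180910-92180921, plus strand, exon 1 of a non-coding transcript: catCTGCTGCTGCTGctt
Nlgn3, chrX:101320998-101321009, plus strand, exon 7, 3′ UTR: ggcCAGCAGCAGCAGcct
The longest, in Grin2d, had 8 units. Between the CWG-cPIP and vehicle mice of the 300-repeat groups these 6 genes differed by 0.49 (Grin2d), 0.04 (Grik5), 0.71 (Grm2), 0.60 (Grm4), 0.37 (Dlg2) and 0.38 (Nlgn3), none past the test. All 6 means were higher with the compound, as were 37 of all 41 members. A run in a transcript is a description and no site of binding.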

How the data were processed

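Total RNA of hippocampus from 9 mice, 3 a group, was sequenced with a stranded kit. The submitters' processing notes name Trim Galore 0.6.6, STAR 2.7.9a, RSEM 1.3.3, DESeq2 1.36.0 and the build mm10. The authors deposited 1 table a sample of rlog values, which are on a log2 scale, normalized for library size and shrunken for low counts, so differences of low genes are understated. No counts were used here, depth is unknown, and the precision is that of 3 mice a group.

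The 14867 of 24411 genes averaging log2 of 10 or more were fitted in limma 3.58.1 (R 4.3.3) with a mean for each of the 3 groups and a variance trend, moderated, with Benjamini-Hochberg adjustment over all genes tested and calls at an adjusted p under 0.05. The script was tested on simulated data. Subunit differences were tested by exact permutation (scipy 1.17.1, Python 3.11.15). Levels per length and CAG or CTG runs used GENCODE M21 (GRCm38). The members, related genes and marker lists were chosen with earlier results of these data known. A set of related genes on glutamate transport is not reported here. Named with values in every mouse were each called member, each called gene of the other related sets and 10 members picked by role, of which Grin1 was also called. Grik3 was named too, for its size, after its values were seen. In the files 27 symbols had been turned into dates. Not every same-numbered pair of mice deviated together, so the numbers were not taken to pair them. Alternatives were other scalings, filters, variance models and sets of mice. Removing the length trend (lowess, span 0.3), fitting only genes with a transcript length and leaving out mice from the subunit differences were chosen after seeing the data.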

Additional observations from a re-analysis of the deposited data

How the results depend on the processing

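Members called lower in CUG300 vehicle against CUG10 vehicle mice numbered 4, and 2 after quantile normalization. Leaving out 1 mouse gave 0 to 13: 0 without CUG10 vehicle replicate 1, 2 or 3 or CUG300 vehicle replicate 3, 1 without CUG300 CWG-cPIP replicate 1, 13 without CUG300 vehicle replicate 2 and 7 without CUG300 CWG-cPIP replicate 3. Over all 14867 genes the lower calls of the settings with 0 members numbered 0, and those of the setting with 13 numbered 1166, against 496. The median of the members then ran from -0.51 to -0.28. Dlgap3, Gria4, Grin1 and Gria3 were lower under all 19 alternatives and called in 15, 13, 12 and 6. For CUG300 CWG-cPIP against CUG10 vehicle mice the count ran from 0 to 1, the 1 being Grm8 when CWG-cPIP replicate 2 was left out. In that setting 70 of all 14867 genes were called lower and 497 higher. The median of the members ran from -0.12 to 0.032, the last without CUG300 CWG-cPIP replicate 3. The test of all 3 groups called 1 member with median centering, 1 with the length trend removed and 0 to 3 with 1 mouse left out, 2 without CUG300 CWG-cPIP replicate 2 and 3 without replicate 3. The share of all genes called by that test in these settings is not given here, so the counts cannot be read as particular to the members. Places within a class by level per length changed for 8 members with the longest transcript. The cause was not tested.

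Among the called members and those picked by role, signs turned only for genes not called. Signs of the other members are not listed here. For CUG300 vehicle against CUG10 vehicle, Nlgn2 was -0.064 with median centering, and with 1 mouse left out it ran from -0.085 to 0.16 (-0.0046 without CUG10 vehicle replicate 2, -0.041 without CUG300 vehicle replicate 2, lowest without replicate 3). Grin2b was 0.23 with the length trend removed and 0.074 at its highest, without CUG300 vehicle replicate 3. For CWG-cPIP against CUG300 vehicle, Grin2b was -0.15 with the length trend removed and ran from -0.036 to 0.32 with 1 mouse left out. For CWG-cPIP against CUG10 vehicle, Grin2b was -0.022 with median centering, -0.0044 with quantile normalization and -0.052 without CWG-cPIP replicate 3. Grm5 was -0.010 with median centering and ran from -0.074 to 0.22. Shank3 was 0.022 with quantile normalization, 0.0058 with the length trend removed, 0.098 without CUG10 vehicle replicate 3, and ran from -0.097 to 0.14.

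With the replicate number as a block 3 members were called lower between the vehicle groups, beside 405 of all genes, and Gria3 was no longer among them. Correlations of deviations between same-numbered mice were 0.14, -0.21 and -0.019 for these groups, -0.18, 0.40 and 0.41 for CWG-cPIP with CUG300 vehicle and -0.17, -0.50 and -0.33 for CWG-cPIP with CUG10 vehicle. Not every pair passed 0.1 in any comparison, so they were taken to share only a number. Depth is unknown, so its limits could not be given.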
